A study of Mus musculus with 6 samples.

Results

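The genes described here encode secreted or inducible defence proteins of the intestinal epithelium other than those of Paneth cell granules. They are 10 of the 36172 entries of the deposited table, taken by gene symbol: the Reg lectins *Reg1*, *Reg3a*, *Reg3b*, *Reg3g* and *Reg4*, and *Ltf*, *Lcn2*, *Pigr*, *Dmbt1* and *Nos2*. They were chosen with their values in these libraries known, so their levels are a description, given without p-values, and their calls in the fit over all genes support nothing.

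The libraries came from organoids, cultures of epithelial cells grown from intestinal tumors of C57BL/6 mice aged 15 to 20 weeks. The study reports that tumor cells with the truncating *Apc* Δ716 mutation lose the remaining *Apc* allele. It describes no such check for the sequenced organoids. All 6 libraries carried the *Apc* Δ716 mutation. They differed in *Trp53*, which was wild type in Apc(D716) p53(+/+), null on both alleles in Apc(D716) p53(flox/flox), and a homozygous R270H missense mutant in Apc(D716) p53(M/M), named here *Trp53* +/+, *Trp53* flox/flox and *Trp53* R270H/R270H. Each genotype had 2 organoid preparations from different mice, which gave 6 libraries. The study describes the flox allele as functionally null. It reports that tamoxifen, given to mice with villin-CreER, a Cre active in intestinal epithelium, leads to expression of the R270H mutant. Tamoxifen and the R270H allele therefore cannot be told apart here.

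The gut epithelium keeps bacteria away from its surface by secreting proteins that bind or starve them. Reg3 proteins are small C-type lectins that bind the bacterial cell wall, and in enterocytes and Paneth cells they are induced through the interleukin-22 receptor with STAT3 and through Toll-like receptors with Myd88. Lactoferrin and lipocalin 2 withhold iron, the polymeric immunoglobulin receptor carries immunoglobulin A into the lumen, Dmbt1 is a mucin-like glycoprotein that binds bacteria, and Nos2 makes nitric oxide. An organoid culture lacks the immune cells and the microbes that supply many of these inducers in the intestine.

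Values are rpkm, reads per kilobase of transcript, scaled to the mapped reads of the library. No entry of the table was below 1 rpkm, which is called the floor here, and 23760 entries stood there in all 6 libraries. Depth was estimated from steps of 1 read in short genes as 44.2 to 47.2 M mapped reads in 5 libraries and is not known for *Trp53* flox/flox replicate 1. For *Trp53* +/+ replicate 1 an estimate of 40.9 M scored nearly as well as 47.0 M, and would lower this range and the reads at the floor. At that depth 1 rpkm of *Reg3g* was worth 34.1 to 36.4 reads, so the floor hides low expression and a ratio against it is a lower bound. *Trp53* itself followed the labels, with 75.9 and 74.3 rpkm in *Trp53* +/+, 1.73 and 2.48 rpkm in *Trp53* flox/flox and 72.8 and 82.7 rpkm in *Trp53* R270H/R270H. Replicates of *Trp53* +/+ had a median s.d. of 0.0463 on the log2 scale, those of *Trp53* R270H/R270H of 0.0621 and those of *Trp53* flox/flox of 0.247, so the *Trp53* flox/flox libraries stood farther apart than the others. In such bulk RNA, fewer cells of a type and less RNA per cell cannot be told apart.

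*Reg3g*, whose product binds the peptidoglycan of Gram-positive bacteria, had the highest level of the members in wild-type organoids. It stood at 111 and 97.9 rpkm in the *Trp53* +/+ libraries, at 1.52 and 7.88 rpkm in *Trp53* flox/flox, and at the floor in both *Trp53* R270H/R270H libraries. The 3 genotypes did not overlap. The mean of 105±9.39 rpkm (s.d., n=2) in *Trp53* +/+ was at least 105-fold above *Trp53* R270H/R270H and 22.2-fold above the 4.70±4.50 rpkm (n=2) of *Trp53* flox/flox. On the log2(rpkm+1) scale the difference from *Trp53* +/+ was -5.72 (s.e. 0.57) in *Trp53* R270H/R270H and -4.48 (s.e. 0.57) in *Trp53* flox/flox, and the pair of mutant genotypes differed by -1.24 (s.e. 0.57). Without *Trp53* flox/flox replicate 1 the latter differences were -3.57 and -2.15, and without replicate 2 they were -5.39 and -0.33. Each s.e. pools the spread of all 3 genotypes. With only *Trp53* R270H/R270H and *Trp53* +/+ fitted, the s.e. of their difference was 0.081. Both *Trp53* R270H/R270H values lay on the floor and added no spread, so this smaller s.e. does not measure their precision.

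*Reg3b*, the close relative of *Reg3g*, was lower in the same way. Its levels were 49.6 and 39.9 rpkm in *Trp53* +/+, 1 and 2.78 rpkm in *Trp53* flox/flox, and 1 rpkm in both *Trp53* R270H/R270H libraries. Wild-type organoids stood above every mutant library, while *Trp53* flox/flox and *Trp53* R270H/R270H overlapped at the floor. The mean of 44.7±6.86 rpkm (n=2) in *Trp53* +/+ was at least 44.7-fold above *Trp53* R270H/R270H, with a log2 difference of -4.51 (s.e. 0.32). Against the 1.89±1.26 rpkm (n=2) of *Trp53* flox/flox the log2 difference was -4.05 (s.e. 0.32).

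*Reg1*, a lectin of the exocrine pancreas and the regenerating gut, had 10.5 and 14.2 rpkm in *Trp53* +/+ and was at the floor in all 4 libraries of the mutant genotypes. Its mean of 12.3±2.62 rpkm (n=2) was at least 12.3-fold above each of them. The log2 difference was -2.72 (s.e. 0.18) in both comparisons, a value set by the floor.

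*Reg3a* was at the floor in all 6 libraries. So were *Reg2* and *Reg3d*, the other genes of the cluster.

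*Reg4*, made by enteroendocrine and other secretory cells of the gut, went the other way. It had 28.3 and 22.1 rpkm in *Trp53* +/+, 31.1 and 35.9 rpkm in *Trp53* flox/flox, and 97.6 and 102 rpkm in *Trp53* R270H/R270H. The *Trp53* R270H/R270H libraries were above all the others, and the lowest *Trp53* flox/flox value was above the highest *Trp53* +/+ value. The mean of 99.7±3.08 rpkm (n=2) in *Trp53* R270H/R270H was 3.96-fold above the 25.2±4.35 rpkm (n=2) of *Trp53* +/+ and 2.98-fold above the 33.5±3.42 rpkm (n=2) of *Trp53* flox/flox. The log2 differences were 1.95 and 1.55 (s.e. 0.15 each), whereas that between *Trp53* flox/flox and *Trp53* +/+ was 0.40 (s.e. 0.15).

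**Figure D1:**
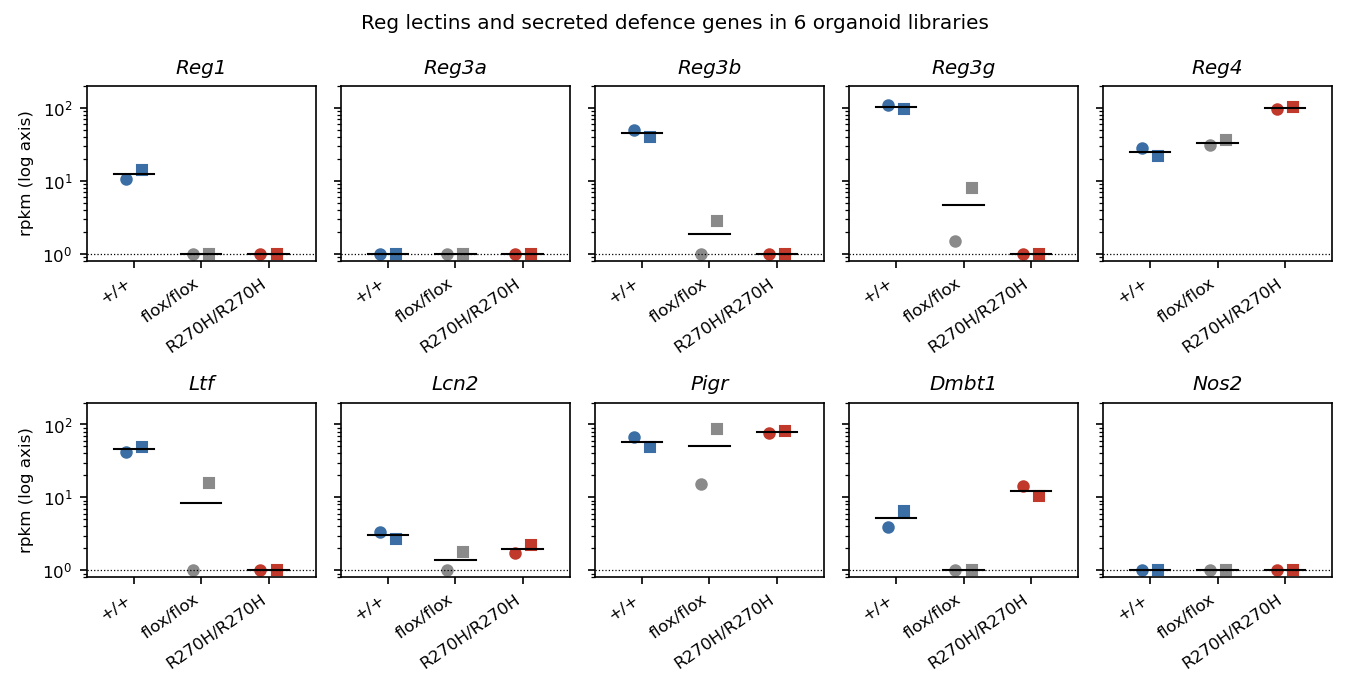
The level of each member in rpkm (log axis) in every library, by *Trp53* genotype; circles are replicate 1, squares replicate 2, horizontal lines genotype means and the dotted line the floor of 1 rpkm. *Reg1*, *Reg3b*, *Reg3g* and *Ltf* are highest in the *Trp53* +/+ libraries, *Reg4* stands near 100 rpkm only in *Trp53* R270H/R270H, and *Reg3a* and *Nos2* lie on the floor throughout.

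*Reg1*, *Reg3b* and *Reg3g* are neighbours. On GRCm38, the same assembly as the mm10 used for the table, the 6 genes from *Reg3b* (chromosome 6, 78370657 to 78373466, plus strand) to *Reg3g* (78466269 to 78468872, minus strand) span 98.2 kb. *Reg3d*, *Reg3a*, *Reg2* and *Reg1* lie between them in that order. The genes at the floor in all libraries, *Reg3d*, *Reg3a* and *Reg2*, thus lie together, between *Reg3b* and *Reg1*. *Reg4* lies apart, on chromosome 3 (98222156 to 98236748, plus strand).

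The annotated genes nearest to the cluster on each side gave no signal to compare. The pseudogenes *Gm5576* and *Gm6072*, and *Lrrtm1* and *Ctnna2*, were at the floor in all 6 libraries. The nearest gene past the filter on one side was *Suclg1*, a subunit of succinyl-CoA ligase, with 25.9 to 33.2 rpkm. Its log2 difference was -0.12 (s.e. 0.14) between *Trp53* R270H/R270H and *Trp53* +/+. The start of *Suclg1* lies at -5122 kb from that of *Reg3b*, so its value does not describe the locus. On the other side the nearest was the noncoding *Gm20362*, whose start lies at 661 kb from that of *Reg3b*. It had 1.51 and 1.24 rpkm in *Trp53* +/+, 1 and 2.25 rpkm in *Trp53* flox/flox and 3.95 and 5.09 rpkm in *Trp53* R270H/R270H. In *Trp53* R270H/R270H its log2 difference was 1.21 (s.e. 0.28) from *Trp53* +/+, which was not called. From *Trp53* flox/flox it was 1.11 (s.e. 0.28), which was called higher. Over the 463 genes of chromosome 6 that passed the filter the median log2 difference was 0.02 between *Trp53* R270H/R270H and *Trp53* +/+ and -0.04 between *Trp53* flox/flox and *Trp53* +/+.

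**Figure D2:**
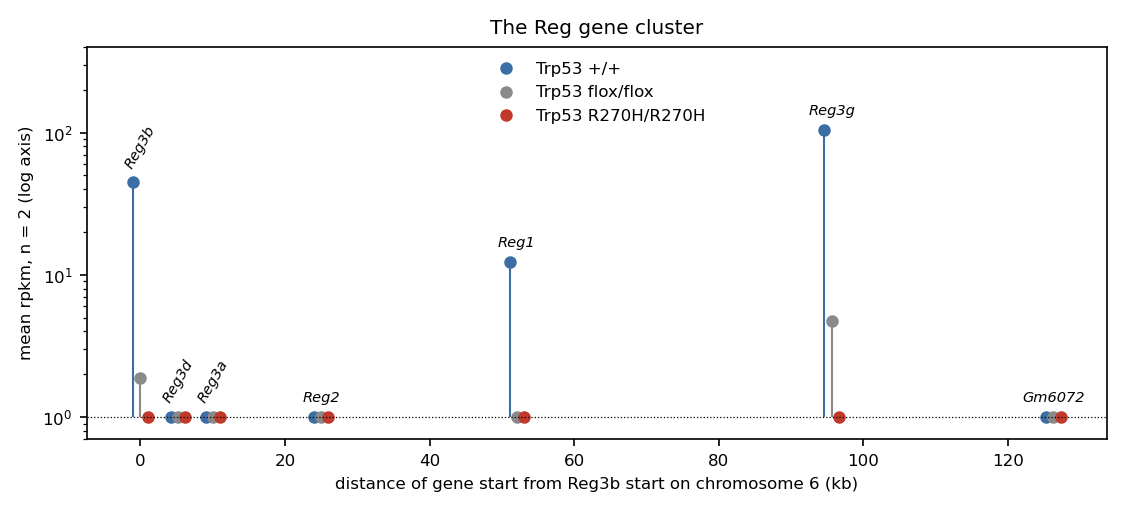
Mean rpkm (log axis, n=2) of each genotype at the genes of the *Reg* cluster, against the distance of the gene start from that of *Reg3b* in kb; the 3 points of a gene are set side by side for legibility. *Reg3b*, *Reg1* and *Reg3g* rise above the floor in *Trp53* +/+, at 44.7, 12.3 and 105 rpkm, while *Reg3d*, *Reg3a*, *Reg2* and the pseudogene *Gm6072* lie on it.

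Reads of such relatives can be divided between copies. The longest run of identical bases in the *Reg3g* and *Reg3b* transcripts was 35, and 0 of 734 windows of 50 bases were shared. Identity, as matched bases over the length of the shorter transcript, was 73.4%. By the same measure *Reg3g* and *Reg4* had 70.3%, and *Reg3b* and *Reg3a* had 75.2%. No pair among the *Reg* transcripts shared such a window, and the closest pair by identity was *Reg1* and *Reg2*, at 81.2%. Read length and the treatment of reads with several matches are not given in the sources used here, so the single values of *Reg3g* and *Reg3b* remain uncertain to that extent.

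The start regions of the members are shown to compare the cluster genes there. RefSeq sequence of GRCm38.p6 from 250 bases before to 50 bases after the start site was at hand for 8 of the 10 members, without *Dmbt1* and *Nos2*. It is printed for the Reg lectins that stood above the floor in wild-type organoids and for *Ltf*, since these genes carry the differences just described or, for *Ltf*, described next. Capitals mark motif matches on either strand: TATAAAA, TTCNNNGAA (STAT factors), CTTTGAT and CTTTGAA (TCF factors), the NF-kB motif and the decamer of p53 response elements.
Reg3g (chr6:78468825-78469124, minus strand): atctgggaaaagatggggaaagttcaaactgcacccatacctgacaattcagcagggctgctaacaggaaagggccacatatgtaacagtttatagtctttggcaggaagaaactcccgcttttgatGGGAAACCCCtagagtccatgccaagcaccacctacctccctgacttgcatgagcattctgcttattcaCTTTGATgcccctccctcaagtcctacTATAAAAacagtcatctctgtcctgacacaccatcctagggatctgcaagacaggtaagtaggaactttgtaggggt
Reg3b (chr6:78370635-78370934, plus strand): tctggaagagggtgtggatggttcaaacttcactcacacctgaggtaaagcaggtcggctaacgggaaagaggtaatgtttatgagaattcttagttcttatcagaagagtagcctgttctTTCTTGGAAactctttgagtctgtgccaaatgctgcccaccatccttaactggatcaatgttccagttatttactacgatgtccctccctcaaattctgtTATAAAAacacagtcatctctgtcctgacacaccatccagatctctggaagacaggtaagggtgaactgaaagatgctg
Reg1 (chr6:78425733-78426032, plus strand): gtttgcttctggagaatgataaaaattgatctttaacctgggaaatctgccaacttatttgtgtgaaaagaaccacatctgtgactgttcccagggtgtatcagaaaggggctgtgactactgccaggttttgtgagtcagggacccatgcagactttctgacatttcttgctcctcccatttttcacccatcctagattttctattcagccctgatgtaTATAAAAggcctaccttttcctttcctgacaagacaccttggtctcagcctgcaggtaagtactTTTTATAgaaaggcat
Reg4 (chr3:98221906-98222205, plus strand): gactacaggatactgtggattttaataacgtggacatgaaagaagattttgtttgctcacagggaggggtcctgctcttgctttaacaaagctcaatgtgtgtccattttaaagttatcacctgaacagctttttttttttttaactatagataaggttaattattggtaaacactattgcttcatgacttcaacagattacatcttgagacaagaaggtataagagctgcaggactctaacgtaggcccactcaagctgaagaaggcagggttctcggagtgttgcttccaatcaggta
Ltf (chr9:111019042-111019341, plus strand): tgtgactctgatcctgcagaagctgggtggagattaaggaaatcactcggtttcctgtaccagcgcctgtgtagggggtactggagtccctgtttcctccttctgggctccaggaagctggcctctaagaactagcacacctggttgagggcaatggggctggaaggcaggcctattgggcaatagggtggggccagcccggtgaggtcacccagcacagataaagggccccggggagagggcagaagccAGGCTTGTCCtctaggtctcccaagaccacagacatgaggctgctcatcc

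*Reg3g* and *Reg3b* had 71.3% identity in these windows, with a shared run of 29 bases, against 57.3% and 59.0% between each of them and *Reg4*. The other pairs of cluster genes had 60% to 65.3%, close to the values with *Reg4*. A TATAAAA match started 27 bases before the start site of *Reg3g*, 29 before that of *Reg3b* and 30 before that of *Reg1*, and *Reg1* had another on the opposite strand after the start. *Reg2*, which was at the floor throughout, also had one 30 bases before its start. TATAAAA occurred in 5.48% of the 32851 promoter windows. TTCNNNGAA was found in *Reg3b*, *Pigr* and *Reg3d*, and in 8.30% of all windows. The NF-kB motif was found in *Reg3g*, and in 8.46% of all windows. CTTTGAT was found in *Reg3g*, *Reg3a* and *Reg2*, and in 3.73% of all windows, whereas CTTTGAA, present in 5.14%, was in none of these genes. The p53 decamer was found in *Ltf* and *Reg3a*, and in 8.36% of all windows. *Reg4* and *Lcn2* had no match. A match is only a description of the letters in these windows.

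*Ltf*, on chromosome 9 (111019271 to 111042767, plus strand), encodes lactoferrin, an iron-binding protein of secretions and neutrophil granules. It stood at 42.3 and 49.7 rpkm in *Trp53* +/+, at 1 and 15.9 rpkm in *Trp53* flox/flox, and at the floor in both *Trp53* R270H/R270H libraries. Wild-type organoids were above every mutant library, and the *Trp53* flox/flox libraries were far apart, one of them level with *Trp53* R270H/R270H. The mean of 46.0±5.22 rpkm (n=2) in *Trp53* +/+ was at least 46.0-fold above *Trp53* R270H/R270H. The log2 difference was -4.55 (s.e. 0.96, or 0.095 with only these 2 genotypes fitted). The smaller s.e. is partly set by the floor, where both *Trp53* R270H/R270H values lay without spread. Against *Trp53* flox/flox (8.43±10.5 rpkm, n=2) the log2 difference was -3.01 (s.e. 0.96), and it was -1.47 without *Trp53* flox/flox replicate 1 and -4.55 without replicate 2.

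*Lcn2* (chromosome 2, 32384633 to 32388252), whose product binds bacterial siderophores, was low. Its values were 3.37 and 2.65 rpkm in *Trp53* +/+, 1 and 1.81 rpkm in *Trp53* flox/flox, and 1.75 and 2.19 rpkm in *Trp53* R270H/R270H. Wild-type libraries were above the others, but none reached the filter of 4 rpkm. Fitted without the filter, the log2 difference from *Trp53* +/+ was -0.43 for *Trp53* R270H/R270H, and for *Trp53* flox/flox it was -0.75.

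*Dmbt1* (chromosome 7, 131032053 to 131121630) separated the mutant genotypes from each other. It had 3.89 and 6.57 rpkm in *Trp53* +/+, was at the floor in both *Trp53* flox/flox libraries, and had 14.2 and 10.4 rpkm in *Trp53* R270H/R270H. The 3 genotypes did not overlap. The mean of 12.3±2.65 rpkm (n=2) in *Trp53* R270H/R270H was at least 12.3-fold above *Trp53* flox/flox and 2.35-fold above the 5.23±1.90 rpkm (n=2) of *Trp53* +/+. The log2 differences from *Trp53* +/+ were 1.11 (s.e. 0.26) in *Trp53* R270H/R270H and -1.61 (s.e. 0.26) in *Trp53* flox/flox.

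*Pigr* (chromosome 1, 130826684 to 130852249) was the most abundant member after *Reg3g* in wild-type organoids, by rpkm. It stood at 67.4 and 48.7 rpkm in *Trp53* +/+, 15.1 and 86.0 rpkm in *Trp53* flox/flox, and 76.4 and 80.2 rpkm in *Trp53* R270H/R270H. The *Trp53* flox/flox libraries lay below and above all the others, so their differences from the other genotypes were within their own spread. The log2 difference between *Trp53* R270H/R270H and *Trp53* +/+ was 0.44 (s.e. 0.77, or 0.16 with only these 2 genotypes fitted). Between *Trp53* flox/flox and *Trp53* +/+ it was -0.64 (s.e. 0.77), which became 0.58 without *Trp53* flox/flox replicate 1 and -1.85 without replicate 2.

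*Nos2*, the inducible nitric oxide synthase (chromosome 11, 78920787 to 78960254), was at the floor in all 6 libraries.

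**Figure D3:**
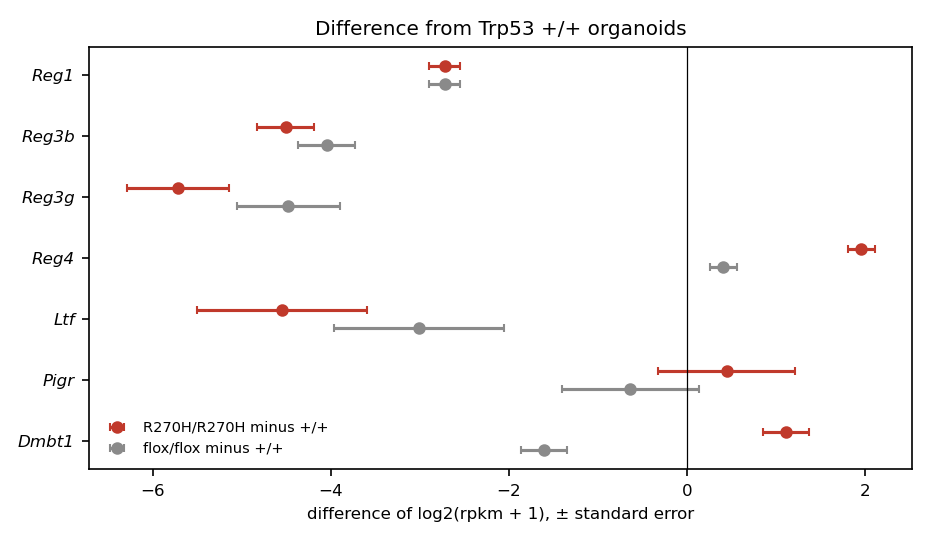
Differences of log2(rpkm+1) from *Trp53* +/+ for the 7 members that passed the filter. Bars are 1 standard error from limma, with the spread pooled over all genotypes. *Reg3g* has the lowest values, -5.72 and -4.48, *Reg4* and *Dmbt1* are higher in *Trp53* R270H/R270H by 1.95 and 1.11, and the *Pigr* values of 0.44 and -0.64 lie within 1 standard error of 0.

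In all, 7 of the 10 members reached 4 rpkm in at least 1 library. *Reg3a*, *Lcn2* and *Nos2* did not. Of the 10042 genes that did, limma called 12.2% between *Trp53* R270H/R270H and *Trp53* +/+ (5.86% higher, 6.36% lower), 11.3% between *Trp53* flox/flox and *Trp53* +/+ (4.38% higher, 6.90% lower) and 24.6% between the mutant genotypes (13.6% higher and 11.0% lower in *Trp53* R270H/R270H). Among the members *Reg1*, *Reg3b*, *Reg3g* and *Ltf* were called lower and *Reg4* higher in the first comparison. *Reg1*, *Reg3b*, *Reg3g* and *Dmbt1* were called lower in the second, and *Reg4* and *Dmbt1* higher in the third. The libraries of the groups compared did not overlap for 3 members higher and 4 lower in the first comparison (44.2% and 37.6% of all genes tested), 1 higher and 5 lower in the second (30.6% and 33.9%) and 2 higher and 1 lower in the third (36.8% and 31.2%). The members were chosen on these contrasts, so nothing is read from those counts.

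These calls moved with single libraries. The 5 calls of the first comparison became 0 without *Trp53* +/+ replicate 1, *Trp53* +/+ replicate 2 or *Trp53* R270H/R270H replicate 1, 1 without *Trp53* R270H/R270H replicate 2, and 6 without either *Trp53* flox/flox library. The 4 calls of the second became 0 without either *Trp53* +/+ library, 1 without either *Trp53* R270H/R270H library and 6 without either *Trp53* flox/flox library. The 2 calls of the third became 5 and 4 without *Trp53* flox/flox replicates 1 and 2, and 0 and 1 without *Trp53* R270H/R270H replicates 1 and 2.

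The genes with the profile nearest to that of *Reg3g* included *Reg3b* and *Ltf*. Likeness was the root mean square difference of log2(rpkm+1), centred on the mean of the 6 libraries, between *Reg3g* and each of the other 10041 genes tested, with a median of 2.54 over them. *Lipf*, gastric lipase, was nearest at 0.457, with 47.9 and 51.9 rpkm in *Trp53* +/+, 1 and 4.17 rpkm in *Trp53* flox/flox and the floor in *Trp53* R270H/R270H. *Reg3b* followed at 0.566 and *Ltf* after it at 0.739. *Gm11062* (0.813) had 79.1 and 82.9 rpkm in *Trp53* +/+, 1 and 32.7 rpkm in *Trp53* flox/flox and the floor in *Trp53* R270H/R270H, and *9030617O03Rik* (0.905) had 28.3 and 33.7 rpkm in *Trp53* +/+ and the floor elsewhere. *Reg1*, with a lower wild-type level, was at rank 26 (1.35), while *Pigr*, *Dmbt1* and *Reg4* were at ranks 5342, 9584 and 9941. All these distances come from the same 6 libraries.

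Genes that act with the members were compared as 6 lists of 79 genes, of which 43 passed the filter. In limma, with Benjamini-Hochberg adjustment over all 10042 genes, 8 of the 43 (18.6%) were called between *Trp53* R270H/R270H and *Trp53* +/+, 4 in each direction. Between *Trp53* flox/flox and *Trp53* +/+ 7 were called (16.3%), 5 higher and 2 lower, and between the mutant genotypes 12 (27.9%), 6 in each direction. The shares for all genes were 12.2%, 11.3% and 24.6%. The lists were chosen with earlier results of these data known, so these counts and the p-values of listed genes below are a description. The median log2 difference of the 43 genes was 0.10, -0.03 and 0.01. A list of *Reg2* and *Reg3d* had no gene past the filter.

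None of the tested cytokine receptors and STAT3 pathway genes passed the threshold. Of 15 such genes listed 11 passed the filter, and limma called 0 in each of the 3 comparisons, with 2, 2 and 1 at an unadjusted p under 0.05. *Il22ra1*, the receptor subunit for interleukin-22, had 4.95 and 5.37 rpkm in *Trp53* +/+, 6.70 and 8.42 rpkm in *Trp53* flox/flox and 7.78 and 7.38 rpkm in *Trp53* R270H/R270H. *Stat3* had 23.8 and 25.9 rpkm in *Trp53* +/+, 13.1 and 29.3 rpkm in *Trp53* flox/flox and 26.3 and 25.1 rpkm in *Trp53* R270H/R270H. The target and feedback inhibitor *Socs3* was at 5.40 and 5.29 rpkm, 1.04 and 4.87 rpkm, and 4.79 and 5.85 rpkm in the same order. Transcripts of *Il22ra1*, *Stat3* and *Socs3* were present in the *Trp53* R270H/R270H libraries, where *Reg3g* and *Reg3b* were at the floor. *Il17re*, a listed receptor gene below the filter, had 2.72 and 3.53 rpkm in *Trp53* +/+. It had 1 and 1.33 rpkm in *Trp53* flox/flox and 1.09 and 1.10 rpkm in *Trp53* R270H/R270H. *Osmr* was at the floor in all libraries. Activity of the pathway was not measured, and its part in the differences of the members was not tested.

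Among 10 tested inducers of defence genes 4 were called between *Trp53* R270H/R270H and *Trp53* +/+. *Cd14*, the endotoxin co-receptor, fell from 16.7 and 14.4 rpkm to 2.81 and 3.46 rpkm, a log2 difference of -2.0 (s.e. 0.16, limma adjusted p=0.00432), while *Trp53* flox/flox had 12.3 and 15.0 rpkm. Its partner *Tlr4* fell by 0.89 (s.e. 0.12, limma adjusted p=0.0143). *Tlr2*, the receptor for bacterial lipoproteins, rose by 1.15 (s.e. 0.14, limma adjusted p=0.0119), from 3.77 and 3.08 rpkm to 8.38 and 9.20 rpkm. The adaptor *Myd88* rose by 0.55 (s.e. 0.12, limma adjusted p=0.0431), and is named after its value was seen. In *Trp53* flox/flox against *Trp53* +/+ 3 inducers were called, all higher: the transcription cofactor *Bcl3* by 1.37 (s.e. 0.25, limma adjusted p=0.0350), *Myd88* by 0.93 (s.e. 0.12, limma adjusted p=0.0169) and the interferon regulatory factor *Irf1* by 0.68 (s.e. 0.12, limma adjusted p=0.0344). Between the mutant genotypes 5 were called. *Cd14*, *Bcl3* and *Irf1* were lower in *Trp53* R270H/R270H, by log2 differences of -1.82, -1.65 and -0.93, and *Tlr2*, named after its value was seen, was higher by 0.56.

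The other epithelial defence genes moved in both directions. Of 28 listed, 12 were at the floor in all libraries and 11 passed the filter. Complement factor B (*Cfb*), a protease of the alternative complement pathway, fell in both mutant genotypes, from 25.3 and 24.2 rpkm in *Trp53* +/+ to 7.16 and 7.42 rpkm in *Trp53* flox/flox and 7.06 and 7.03 rpkm in *Trp53* R270H/R270H. Its log2 differences were -1.64 and -1.68 (s.e. 0.10 each, limma adjusted p=0.00326 and 0.00367). *Lbp*, lipopolysaccharide-binding protein, was at 1 and 1.14 rpkm in *Trp53* +/+ and 1 rpkm in both *Trp53* flox/flox libraries, and rose to 7.31 and 5.73 rpkm in *Trp53* R270H/R270H (log2 difference 1.85, s.e. 0.17, limma adjusted p=0.00552). The secreted lectin *Itln1* rose from 74.9 and 74.8 rpkm in *Trp53* +/+ to 135 and 156 rpkm in *Trp53* R270H/R270H, a log2 difference of 0.95 (s.e. 0.19, limma adjusted p=0.0382). *Itln1* and *Lbp* were also called higher between *Trp53* R270H/R270H and the null genotype, as was the NADPH oxidase *Nox1*, by log2 differences of 1.64, 1.90 and 2.55. *Wfdc2*, an antiprotease, had 2.98 and 2.89 rpkm in *Trp53* +/+, 1 and 146 rpkm in *Trp53* flox/flox, and 25.2 and 34.6 rpkm in *Trp53* R270H/R270H. The means of the last and the first were 10.2-fold apart and their libraries did not overlap, but with the common estimate of the spread (log2 difference 2.96, s.e. 1.93) it was not called.

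Of the partners of the members 4 passed the filter. *Sftpd*, surfactant protein D, a collectin that binds Dmbt1, had 10.6 and 11.6 rpkm in *Trp53* +/+, 1 and 2.74 rpkm in *Trp53* flox/flox and the floor in *Trp53* R270H/R270H. It fell by 2.60 (s.e. 0.31, limma adjusted p=0.0112) in *Trp53* R270H/R270H and by 2.14 (s.e. 0.31, limma adjusted p=0.0225) in *Trp53* flox/flox. Galectin 3 (*Lgals3*) rose by 0.69 (s.e. 0.14, limma adjusted p=0.0395) in *Trp53* flox/flox and was lower by a log2 difference of -0.94 in *Trp53* R270H/R270H than in *Trp53* flox/flox. *Extl3*, a glycosyltransferase described as a receptor of Reg proteins, was called only between the mutant genotypes, at 8.85 and 13.5 rpkm in *Trp53* flox/flox and 19.3 and 18.9 rpkm in *Trp53* R270H/R270H. Of the 7 tested enzymes of nitric oxide and arginine metabolism 0 were called by limma between *Trp53* R270H/R270H and *Trp53* +/+ (1 at an unadjusted p under 0.05). *Spr*, which makes the cofactor of nitric oxide synthases, rose by 1.00 (s.e. 0.17, limma adjusted p=0.0314) in *Trp53* flox/flox, and *Spr* and *Nosip* were lower in *Trp53* R270H/R270H than in *Trp53* flox/flox by log2 differences of -0.78 and -0.55.

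**Figure D4:**
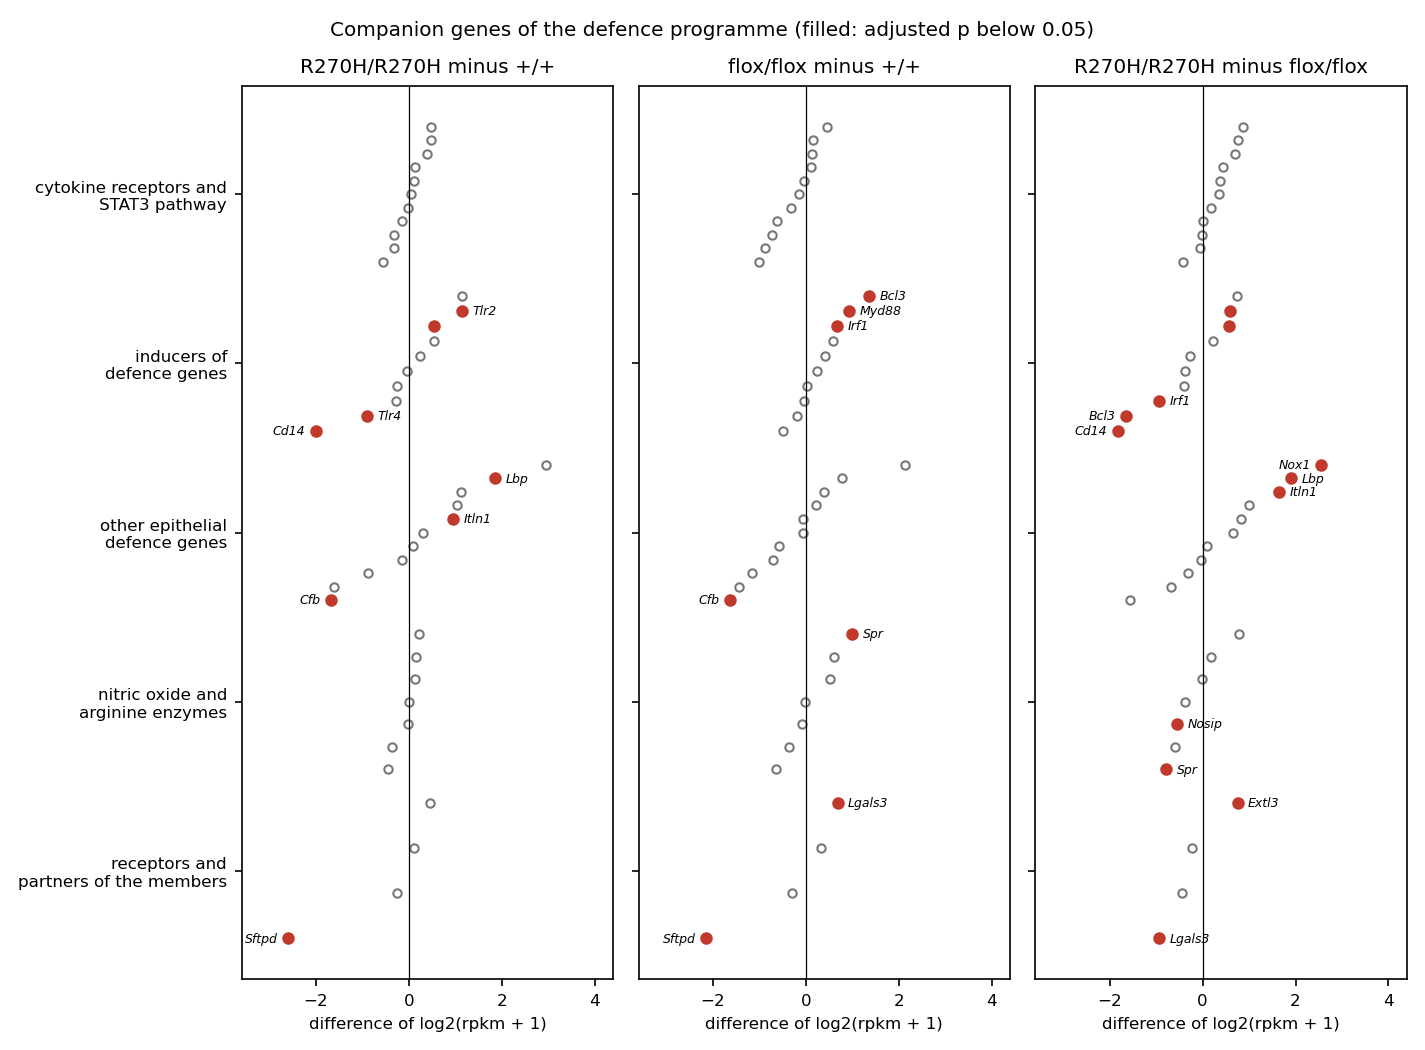
Differences of log2(rpkm+1) for the 43 companion genes that passed the filter, by list and comparison; filled points passed an adjusted p of 0.05 in limma, the 3 of each list with the largest differences are named, and points of a list are spread vertically for legibility. No filled point stands in the cytokine receptor and STAT3 list, *Cfb* and *Sftpd* are called lower in both mutant genotypes, and *Lbp*, *Itln1* and *Tlr2* are called higher in *Trp53* R270H/R270H.

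The calls of these companion genes also moved with single libraries. Between *Trp53* R270H/R270H and *Trp53* +/+ the 8 calls became 0 without either *Trp53* +/+ library or *Trp53* R270H/R270H replicate 1, 2 without *Trp53* R270H/R270H replicate 2, and 26 without either *Trp53* flox/flox library. Between *Trp53* flox/flox and *Trp53* +/+ the 7 calls became 0 without any 1 library of *Trp53* +/+ or *Trp53* R270H/R270H, and 27 and 34 without *Trp53* flox/flox replicates 1 and 2. Between the mutant genotypes the 12 calls became 3 and 4 without *Trp53* +/+ replicates 1 and 2, 30 and 36 without *Trp53* flox/flox replicates 1 and 2, and 1 and 3 without *Trp53* R270H/R270H replicates 1 and 2.

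Markers of the cell types that can make these proteins were read beside them. Epithelial markers were high in all libraries, with 280.4 to 399 rpkm of *Epcam*. Their list summed to 2156 and 2107 rpkm in *Trp53* +/+, 3322 and 2877 rpkm in *Trp53* flox/flox and 1921 and 1990 rpkm in *Trp53* R270H/R270H. *Krt8* was called higher in *Trp53* flox/flox than in *Trp53* +/+, and *Krt8* and *Krt18* lower in *Trp53* R270H/R270H than in *Trp53* flox/flox. All 8 neutrophil markers, all 4 T cell markers and all 4 B or plasma cell markers were at the floor in all 6 libraries, *S100a8*, *S100a9* and *Ngp* included, beside 42.3 and 49.7 rpkm of *Ltf* in *Trp53* +/+. Of 6 macrophage markers *Adgre1*, *Csf1r* and *Mrc1* were at the floor in all libraries. *Cd68* had 10.2 and 9.87 rpkm in *Trp53* +/+, 2.06 and 11.1 rpkm in *Trp53* flox/flox and 2.22 and 2.41 rpkm in *Trp53* R270H/R270H, *Cd14* was given above, and *Lyz2* left the floor in *Trp53* flox/flox replicate 2 alone, at 5.67 rpkm. The summed macrophage list was 30.9 and 28.3 rpkm in *Trp53* +/+, 18.4 and 34.7 rpkm in *Trp53* flox/flox and 9.03 and 9.86 rpkm in *Trp53* R270H/R270H. Of 3 endothelial markers *Pecam1* and *Kdr* were at the floor, while *Cdh5* had 8.88 and 9.35 rpkm in *Trp53* +/+, 1 and 3.30 rpkm in *Trp53* flox/flox and 1.04 and 1 rpkm in *Trp53* R270H/R270H. *Cdh5* was called lower in both mutant genotypes (limma adjusted p=0.0411 in the null and 0.0224 in the missense genotype), where *Reg3g*, *Reg3b* and *Ltf* were lower too, and the part of these markers in those differences was not tested. Of the 6 pancreatic acinar markers 5 were at the floor, all but *Cela1*, beside *Reg1*. *Cela1* had 19.5 and 17.3 rpkm in *Trp53* +/+, 5.81 and 8.50 rpkm in *Trp53* flox/flox and 17.6 and 21.9 rpkm in *Trp53* R270H/R270H. It was called lower in *Trp53* flox/flox than in either other genotype. Of 6 fibroblast markers 3 were at the floor in all libraries and none passed the filter, with a highest value of 2.44 rpkm for *Col1a1* in *Trp53* flox/flox replicate 2.

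Markers of secretory cells differed between the genotypes too. The 5 Paneth markers summed to 1690 and 1338 rpkm in *Trp53* +/+, 561 and 573 rpkm in *Trp53* flox/flox and 386 and 421 rpkm in *Trp53* R270H/R270H, and limma called 4 of 5 and 5 of 5 lower than in *Trp53* +/+ in these genotypes. Between the mutant genotypes the order of the sums came from *Mmp7*, called lower in *Trp53* R270H/R270H, while *Lyz1*, *Ang4*, *Defa24* and *Defa17* had means 1.08-fold, 2.13-fold, 1.68-fold and 1.85-fold those of *Trp53* flox/flox, and limma called *Defa17* higher. The goblet list summed to 195 and 154 rpkm, 128 and 63.3 rpkm, and 76.8 and 85.8 rpkm in the same order, with *Fcgbp* and *Spink4* called lower in both mutant genotypes. *Chgb*, an enteroendocrine marker, had 10.8 and 7.41 rpkm in *Trp53* +/+, 1 and 2.15 rpkm in *Trp53* flox/flox and the floor in *Trp53* R270H/R270H, where *Reg4* was highest. *Chga* and *Neurod1* did not exceed 1.23 rpkm. The enterocyte list summed to 39.3 and 49.8 rpkm in *Trp53* +/+, 19.2 and 8.31 rpkm in *Trp53* flox/flox, and 32.8 and 22.6 rpkm in *Trp53* R270H/R270H, and the stem cell list to 39.4 and 28.9 rpkm, 54.2 and 49.1 rpkm, and 26.3 and 36.2 rpkm. Within the stem cell list the *Trp53* R270H/R270H level of *Olfm4* was called higher than that of either other genotype, at least 10.5-fold above *Trp53* +/+, and *Ascl2* was called lower there than in *Trp53* flox/flox, which stood 3.55-fold above it. The part of these lists in the differences of the members was not tested.

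**Figure D5:**
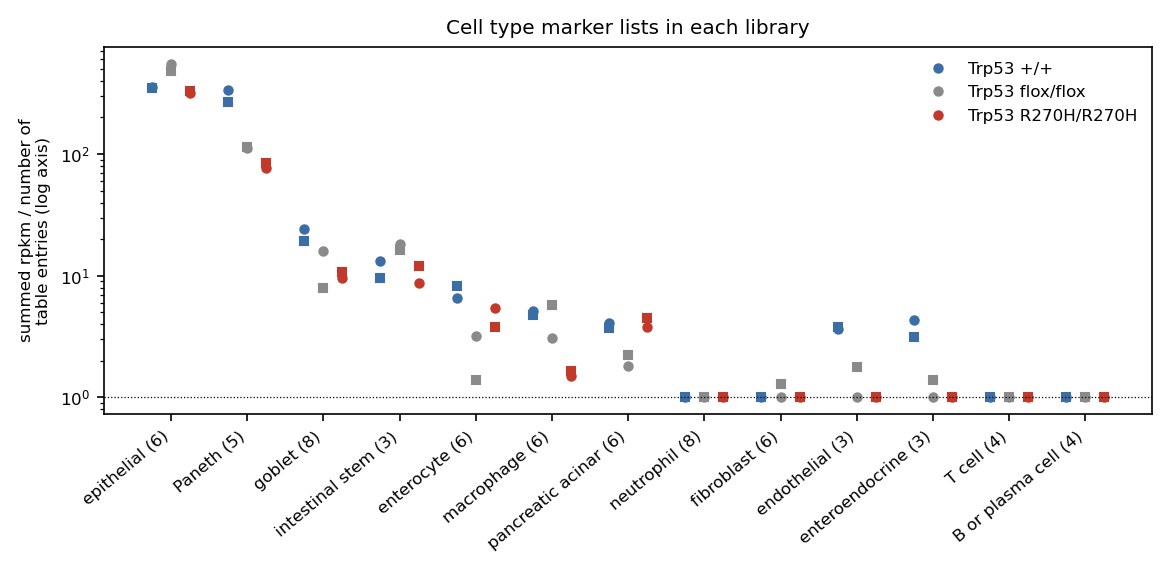
Summed rpkm of each cell type marker list divided by its number of table entries (in brackets; log axis) in every library, with circles for replicate 1, squares for replicate 2 and a dotted line at the floor of 1 rpkm. Neutrophil, T cell and B or plasma cell lists lie on the floor in all 6 libraries, and the Paneth list is highest in the *Trp53* +/+ libraries, at sums of 1690 and 1338 rpkm.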

How the data were processed

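Poly(A) RNA of organoids from 2 mice of each *Trp53* genotype was sequenced by the authors, who aligned the reads to mm10 and deposited rpkm values from StrandNGS, whose version and annotation are not given in the sources used here. Read counts are not part of the table, and 25 gene symbols in it had been read as dates.

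The members were taken by symbol. The members and the gene lists were chosen with earlier results of these data known. A gene was tested if any library reached 4 rpkm (10042 genes), and log2(rpkm+1) was fitted in R 4.3.3 with limma 3.58.1 (lmFit, eBayes with trend=TRUE) for the 6 libraries together, unblocked, and two-sided p-values were adjusted by Benjamini-Hochberg over the genes tested and called under 0.05. Because the pseudocount was added to values with a floor of 1, the fold changes of low genes are understated. An exact permutation test of 2 against 2 libraries cannot go below 0.333 and was not used. Named genes are the members, *Trp53*, *Reg2* and *Reg3d*, the 3 called genes with the largest log2 difference of each list and comparison, the 5 genes nearest to *Reg3g*, the genes beside the *Reg* cluster and cell type markers. Illustrative companions that were not called were added after their values were seen. The value of 1 called companion gene is not reported here, though it is part of the counts.

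Genes were placed by GENCODE M21 on GRCm38, and the promoter windows came from RefSeq on GRCm38.p6. *Adgre1* and *Jchain* are listed in the table as *Emr1* and *Igj*. Python 3.11.15, numpy 2.4.6, pandas 2.3.3, matplotlib 3.10.9 and Biopython 1.88 were used, and the code was tested on simulated data. Alternatives were a pseudocount of 0.1, no filter above the floor, 4 rpkm in both libraries of a genotype, median-of-ratios scaling, 2 replicate blocks, the 2 compared genotypes alone, genotype weights, and each library left out in turn.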

Additional observations from a re-analysis of the deposited data

How the results depend on the processing

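Of 294 member log2 differences recomputed under 14 alternatives, 259 moved by less than the moderated s.d. of the gene in the main limma fit. The other 35 moved by more. The filters, blocks, weights and a fit of the compared genotypes alone cannot change such a difference. Nor can leaving out a library of the third genotype. Those values counted as unmoved by construction. The uncalled differences of *Pigr* changed sign without *Trp53* flox/flox replicate 1, to 0.58 against *Trp53* +/+ and, for *Trp53* R270H/R270H against *Trp53* flox/flox, from 1.08 to -0.14.

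Between *Trp53* R270H/R270H and *Trp53* +/+ limma called 1227 genes. It called 1907 without a filter, 5721 when only the 2 genotypes were fitted and 5987 with genotype weights, and the 8 companion calls became 26 in both of the last. Leaving out each library gave 0 to 5746 genes, 0 to 26 companion genes and 0 to 6 members. The 0 calls came without *Trp53* +/+ replicate 1, *Trp53* +/+ replicate 2 or *Trp53* R270H/R270H replicate 1, where 1545, 1442 and 1569 genes had an unadjusted p under 0.05. Between *Trp53* flox/flox and *Trp53* +/+ the 1133 genes, 7 companion genes and 4 members became 47, 1 and 1 when only those genotypes were fitted. With genotype weights there were 150 genes and 2 companion genes, and leaving out each library gave 8 to 6891 genes, 0 to 34 companion genes and 0 to 6 members. Between the mutant genotypes the 2469 genes and 12 companion genes became 378 and 3 with a fit of those alone. With genotype weights there were 534 genes, 3 companion genes and 0 members, and leaving out each library gave 165 to 7241 genes, 1 to 36 companion genes and 0 to 5 members. The cause was not tested. A pseudocount of 0.1, 4 rpkm in both libraries of a genotype and median-of-ratios scaling left all 9 counts within 1.5 times.

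Same-numbered libraries come from different mice, and their deviations correlated at 0.12, -0.29 and -0.20 between genotypes, so the number is not a pairing. A replicate block gave 550, 280 and 1156 genes in the order above, 6, 4 and 7 companion genes and 4, 3 and 2 members. With the *Trp53* R270H/R270H numbers exchanged, an alternative chosen after seeing the data, it gave 941, 873 and 2276 genes.

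Precision is limited by 2 libraries a genotype and by the floor, under which a gene with fewer than about 34 reads of a transcript as short as *Reg3g* cannot be ordered.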
